A study of Mus musculus with 8 samples.

Results

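The genes described here encode metallothioneins and antioxidant enzymes, followed in mouse stromal cells. The members were taken by symbol from a list of 10 genes. In the table they are written mt1, mt2, hmox1, gclc, gclm, nqo1, txnrd1, gpx3, sod3 and cat. They are the metallothionein genes Mt1 and Mt2, 5 genes known as targets of the transcription factor Nrf2 (Hmox1, Gclc, Gclm, Nqo1 and Txnrd1), and the enzyme genes Gpx3, Sod3 and Cat. All 10 were present among the 22558 genes of the deposited table of estimated fragments, and all 10 passed the filter on low counts, which left 14847 genes for testing. RNA had been sequenced from 8 libraries, 2 in each of 4 groups. Those of 3 groups came from cells that carried surface fibroblast activation protein (FAP), a serine protease of stromal cells, and that had been sorted out of dissociated tissue, which was visceral fat, pancreas or skeletal muscle. The labels call the pancreas cells stellate cells. The last group was of mouse embryonic fibroblasts (MEFs) without FAP, which were sorted, cultured for 3 passages and sorted a second time. No allele or treatment is named for any group, and strain, sex and age are not given in the sources used here. The comparisons with MEFs set FAP+ cells of each tissue against fibroblasts without FAP, and the others set FAP+ populations against each other. The comparisons with MEFs also set freshly dissociated cells against cultured ones. Tissue of origin, FAP status, culture, the second sort and the embryonic source of MEFs therefore cannot be told apart there. In bulk RNA, fewer cells expressing a gene and less RNA per cell cannot be told apart either.

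Metallothioneins are small cysteine-rich proteins that hold zinc and copper and can scavenge oxidants. Their genes are switched on by metals through the transcription factor Mtf1, which binds metal response elements (MREs), and also by glucocorticoids and stress. Nrf2, encoded by Nfe2l2, is normally bound by Keap1, which hands it to the Cul3 ubiquitin ligase for destruction. When oxidants or electrophiles modify Keap1, Nrf2 pairs with small Maf proteins on antioxidant response elements (AREs), sites that the repressor Bach1 can occupy instead. Its targets make glutathione, recycle thioredoxin, reduce quinones and break down heme. Gpx3 and Sod3 are secreted enzymes that remove hydroperoxides and superoxide outside the cell, and catalase removes hydrogen peroxide in peroxisomes.

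Levels are given as normalized CPM, which are estimated fragments scaled to library size by TMM. Where genes are compared with one another, the authors' FPKM are given, which correct for length. The amplification used favours 3′ ends, where fragments need not grow with length, so the order of genes by FPKM depends on this correction. Fold changes come from 1 model of all 8 libraries by edgeR (its quasi-likelihood test), given in log2 units ± SE where shown, and p-values are adjusted by Benjamini-Hochberg over the 14847 genes. A gene was called at an adjusted p below 0.05. The libraries held 15516319 to 27759399 estimated fragments, and a floor of 3 fragments lay between 0.09 and 0.229 CPM. Adipose library 1 stood apart, with a TMM factor of 0.516 against 0.889 to 1.31 in the other libraries. The 2 adipose libraries had a Pearson r of 0.918 on log2 CPM across genes, which are not independent replicates, against 0.973 to 0.98 in the other groups. Fap itself averaged 31.2 ± 4.54 CPM in adipose, 97.9 ± 12.8 in muscle cells and 60.5 ± 7.23 in pancreas FAP+ cells, and 1.44 ± 1.31 in MEFs (SD, n = 2 each). The summed CPM of 6 fibroblast markers ranged from 33098 to 42235 in adipose, 28041 to 28552 in muscle cells and 17923 to 20324 in pancreas, and from 1503 to 2245 in MEFs. In FAP+ cells most of it was Dcn, with 17279 and 21787 CPM in adipose, against 42.6 and 22.7 in MEFs. Col1a1, in the same list, had 1289 and 1180 CPM in pancreas, close to the 1139 and 975 in MEFs. In the adipose pair Col1a1 had 14824 and 1765 CPM. The summed CPM of 6 markers of stellate cells was 729 to 978 in pancreas and 854 to 933 in adipose, so their sum did not set the pancreas cells apart from adipose cells. It was 444 to 470 in muscle cells and 48.5 to 52.9 in MEFs. In pancreas most of it was Cygb, with 577 and 838 CPM, against 389 and 591 in adipose. Gfap and Lrat, in the same list, had at most 0.468 and 0.312 CPM in pancreas. Endothelial markers were present in the adipose libraries. Cdh5, the junction cadherin of vessels, had 47.3 and 31.2 CPM there, against 1.47 and 5.96 in muscle, 0.156 and 0.052 in pancreas cells and 0.12 and 0 in MEFs. The summed CPM of all 6 endothelial markers was 255 to 300 in adipose, 98.9 to 150 in muscle cells and 65.5 to 75.7 in pancreas, and 2.88 to 3.51 in MEFs, and none was at 0 in a whole group. In pancreas and muscle these sums were mostly Tek, an angiopoietin receptor, with 58 and 68.7 CPM in pancreas cells and 86.3 and 102 in muscle cells, against 51.6 and 83.6 in adipose cells and 0.9 and 0.516 in MEFs. Pecam1, a defining endothelial marker, had 57.7 and 114 CPM in adipose, against 4.08 and 20.2 in muscle cells, 1.41 and 0.935 in pancreas cells and at most 0.24 in MEFs. The part of endothelial RNA in the results below was not tested. The 8 leukocyte and macrophage markers summed to 10.3 to 15.1 CPM in adipose, 2.79 to 3.32 in muscle cells and 2.97 to 3.38 in pancreas, and to 1.89 to 2 in MEFs, where 4 of the 8 (Adgre1, Cd163, Cd3e and Cd79a) were at 0. The 6 adipocyte markers summed to 16.2 to 39.5 CPM in adipose and to at most 1.53 CPM elsewhere, with 5 of the 6 at 0 in MEFs.

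Mt1 and Mt2 stand next to each other on chromosome 8, with Mt3 beyond Mt2, in the GRCm38.p6 annotation of RefSeq. Hmox1 and Nqo1 lie on chromosome 8 as well, so 4 of the 10 members share it. The stretches around the annotated starts of Mt1 and Mt2, 250 bases before and 50 after, are shown because these 2 genes had the highest levels of the list in FAP+ cells and moved together. They were read from RefSeq's promoter table in build GRCm38.p6, not in the mm9 build that the submitters' processing notes name. Capitals mark the core of the metal response element, searched as TGCACNC and TGCGCNC on both strands, with none of the matches overlapping another. The Mt1 stretch is chr8:94178839-94179138 and the Mt2 stretch chr8:94172368-94172667, both on the plus strand, 5′ to 3′.
Mt1: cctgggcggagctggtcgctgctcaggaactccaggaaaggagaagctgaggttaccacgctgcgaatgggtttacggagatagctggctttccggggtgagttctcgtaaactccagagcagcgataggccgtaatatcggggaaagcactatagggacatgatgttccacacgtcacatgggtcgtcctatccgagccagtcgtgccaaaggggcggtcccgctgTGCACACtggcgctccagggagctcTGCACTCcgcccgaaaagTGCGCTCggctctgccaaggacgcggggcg
Mt2: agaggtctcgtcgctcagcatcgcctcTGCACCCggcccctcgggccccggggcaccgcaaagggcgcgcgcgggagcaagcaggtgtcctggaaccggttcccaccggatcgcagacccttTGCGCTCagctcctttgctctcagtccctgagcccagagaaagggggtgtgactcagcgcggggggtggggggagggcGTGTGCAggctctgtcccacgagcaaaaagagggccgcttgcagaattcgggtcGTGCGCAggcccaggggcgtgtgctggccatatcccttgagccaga
Mt1 held 3 cores and Mt2 held 4. The stretch of Gclm, which was called in no comparison with MEFs, also held 3, and the stretches of Nqo1, Txnrd1, Gpx3 and Cat held 0. Of 32544 stretches of this length in the table, 25.9% held at least 1 such core, 1.99% at least 3 and 0.522% at least 4. Mt2 also held 1 core of the antioxidant response element, searched as TGACNNNGC on both strands, at bases -79 to -71 before its start, where it overlaps an AP-1 site (TGACTCA). Of all stretches, 12.4% held this ARE core and 5.19% held TGACTCA or TGAGTCA. Promoter stretches of 7 of the 10 members were matched in the table, 9 stretches in all, of which 3 belong to Txnrd1. Apart from Mt2, the ARE core was found in the Gclm stretch and in 1 of the 3 Txnrd1 stretches, and not in the stretches of Mt1, Nqo1, Gpx3 and Cat. A match is a run of letters, not a shown binding site, and sites outside these stretches were not looked for.

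Both metallothionein genes were higher in FAP+ cells of every tissue than in MEFs. Mt1 had 25230 and 2036 CPM in adipose cells, 1722 and 1631 in muscle cells and 726 and 593 in pancreas cells, against 23.5 and 35 CPM in MEFs. The groups did not overlap with MEFs, and adipose library 1 lay 12.4-fold above adipose library 2, whose level was close to that of muscle. Fitted against MEFs, Mt1 was 466-fold higher in adipose cells (log2 8.86 ± 1.27, adjusted p = 0.00115), 57.3-fold in muscle cells (5.84 ± 1.11, adjusted p = 0.00462) and 22.5-fold in pancreas cells (4.49 ± 1.04, adjusted p = 0.011). The adipose fold was 69.5 without adipose library 1 and 856 without adipose library 2, and Mt1 was called in both cases. The muscle call was lost without MEF library 1 (46.9-fold, adjusted p = 0.0503), and the pancreas call without MEF library 1 or 2 (log2 4.22 and 4.82, adjusted p = 0.0902 and 0.0648).

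Mt2 had 15906 and 2257 CPM in adipose cells, 2272 and 1681 in muscle cells and 533 and 453 in pancreas cells, against 14.2 and 17 CPM in MEFs. Here too adipose library 1 stood far above its pair, by 7.05-fold, while the other pairs differed by 1.18-fold to 1.35-fold. Against MEFs, Mt2 was 582-fold higher in adipose cells (log2 9.18 ± 1.06, adjusted p = 0.000458), 127-fold in muscle cells (6.98 ± 0.97, adjusted p = 0.00111) and 31.6-fold in pancreas cells (4.98 ± 0.88, adjusted p = 0.00351). Without adipose library 1 its adipose fold was 145, and without adipose library 2 it was 1011. All 3 calls held with any single library left out.

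Metallothionein transcripts made up a visible share of some libraries. Mt1 and Mt2 together took 2.12% and 0.381% of all estimated fragments in adipose, 0.404% and 0.338% in muscle cells and 0.137% and 0.118% in pancreas, against 0.00495% and 0.0068% in MEFs. By FPKM, Mt1 ranked as gene 1 of the whole table in adipose library 1 and as gene 6 in adipose library 2, and between 7 and 50 in the muscle and pancreas libraries. In MEFs it ranked at 1199 and 849. The ratio of Mt1 to Mt2 in FPKM was 1.63 and 0.925 in adipose cells, 0.777 and 0.995 in muscle cells and 1.4 and 1.34 in pancreas cells and 1.7 and 2.11 in MEFs. Mt2 was therefore the more abundant of the pair in both muscle libraries and in adipose library 2, and Mt1 in the other 5 libraries. The 2 genes are close paralogs, so reads that match both could be split between them in a way the sources used here do not state. An annotated antisense gene overlaps Mt2 in GENCODE M21, and strand use in counting is not stated.

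**Figure D1:**
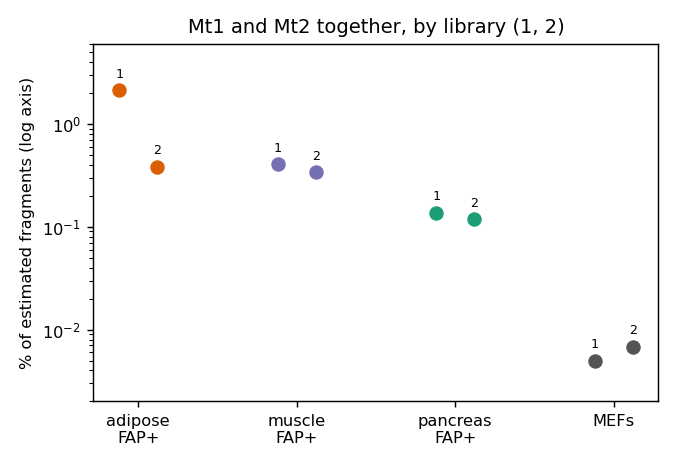
Share of all estimated fragments that came from Mt1 and Mt2 together, in percent on a log axis, for each library of adipose, muscle and pancreas FAP+ cells and of MEFs; each point is 1 library, marked 1 or 2. Adipose library 1 stands at 2.12% and adipose library 2 at 0.381%, level with muscle, while the MEF libraries lie at 0.00495% and 0.0068%.

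The other members of the metallothionein cluster were at or near 0. Mt3, the metallothionein known from the brain, had 0 fragments in 6 libraries and under 2 fragments in muscle library 2 and MEF library 2. Mt4, known from stratified epithelia, had 20.9 and 9.82 fragments in adipose, 0 in muscle cells and pancreas and 0 and 1.94 in MEFs. Neither passed the filter on low counts. Mtf1, the metal-sensing activator of metallothionein genes, averaged 11.5 CPM in adipose, 13.4 in muscle cells and 13.3 in pancreas, and 9.66 in MEFs, with log2 fold changes of 0.25, 0.47 and 0.46 (± 0.24 each) and adjusted p of 0.408, 0.145 and 0.155. Slc30a1, a zinc exporter that Mtf1 is known to activate, averaged 4.43 CPM in adipose, 6.84 in muscle cells and 4.68 in pancreas, and 4.79 in MEFs (log2 -0.10 ± 0.36, 0.51 ± 0.35 and -0.03 ± 0.36, adjusted p = 0.829, 0.269 and 0.95). The sign of both genes changed under some alternatives, and in recovered reads Slc30a1 was higher in adipose cells (log2 0.62, adjusted p = 0.0434). Of 9 tested genes of metal handling, 3 were higher and 1 lower than in MEFs in adipose, and 1 was higher and 1 lower in each of muscle and pancreas (medians of log2 0.25, 0.47 and 0.22). The shares over all tested genes were 26.9%, 23.7% and 23.1% higher and 23.2%, 20.0% and 19.4% lower in adipose, muscle and pancreas. Atox1, a copper chaperone, was 7.26-fold higher in adipose, but 1.65-fold without adipose library 1 and 12.8-fold without adipose library 2. Its call was lost without adipose library 1 and without either MEF library, with adjusted p up to 0.138. Atp7a, the copper pump that loads secreted enzymes such as Sod3, was 2.3-fold higher in adipose (adjusted p = 0.0184, lost without MEF library 1). In muscle it was 2.08-fold higher (adjusted p = 0.0325), a call lost when either library of muscle, pancreas or MEFs was left out. Slc39a10, a zinc importer, was 2.08-fold lower in adipose (adjusted p = 0.0408), a call that held only without adipose library 2. Slc31a1, the copper importer, was 2.32-fold lower in muscle cells and 2.16-fold lower in pancreas (adjusted p = 0.0278 and 0.0384). The muscle call was lost without either muscle library, pancreas library 2 or MEF library 1, and the pancreas call without any 1 library of muscle, pancreas or MEFs.

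The secreted antioxidant enzymes were higher in all FAP+ populations. Gpx3, plasma glutathione peroxidase, had 4591 and 2089 CPM in adipose cells, 1770 and 1924 in muscle cells and 1202 and 1332 in pancreas cells, against 11.3 and 6.65 CPM in MEFs. No FAP+ library came near the MEF range. Gpx3 was 372-fold higher in adipose cells (log2 8.54 ± 0.62, adjusted p = 6.72e-05), 206-fold in muscle cells (7.69 ± 0.6, adjusted p = 0.000103) and 141-fold in pancreas cells (7.14 ± 0.59, adjusted p = 0.000121). Its adipose fold was 234 without adipose library 1, and it was called in all 3 tissues with any single library left out. Sod3, the extracellular superoxide dismutase that binds to matrix, had 266 and 202 CPM in adipose cells, 188 and 163 in muscle cells and 140 and 137 in pancreas cells, against 8.58 and 8.65 CPM in MEFs. The MEF pair was nearly equal, and the lowest FAP+ library lay far above it. Sod3 was 27.1-fold higher in adipose cells (log2 4.76 ± 0.3, adjusted p = 4.34e-05), 20.4-fold in muscle cells (4.35 ± 0.29, adjusted p = 6.58e-05) and 16.1-fold in pancreas cells (4.01 ± 0.29, adjusted p = 7.75e-05), and leaving out any single library kept it between 15.8-fold and 30.6-fold.

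Catalase went the other way by a small margin. Cat had 40.9 and 48.4 CPM in adipose cells, 35.8 and 40.7 in muscle cells and 45.6 and 47.4 in pancreas cells, against 72.5 and 59.9 CPM in MEFs. All 6 FAP+ libraries lay below both MEF libraries. It was 1.73-fold lower in muscle cells (log2 -0.79 ± 0.24, adjusted p = 0.0296), and missed the threshold in adipose cells (log2 -0.57 ± 0.24, adjusted p = 0.0793) and pancreas (log2 -0.51 ± 0.24, adjusted p = 0.119). The muscle call was lost without either library of muscle, pancreas or MEFs (adjusted p up to 0.176). In limma on log2(FPKM + 1) Cat passed in adipose cells (log2 -1.62, adjusted p = 0.00854), where the median over all genes was itself at -0.65.

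**Figure D2:**
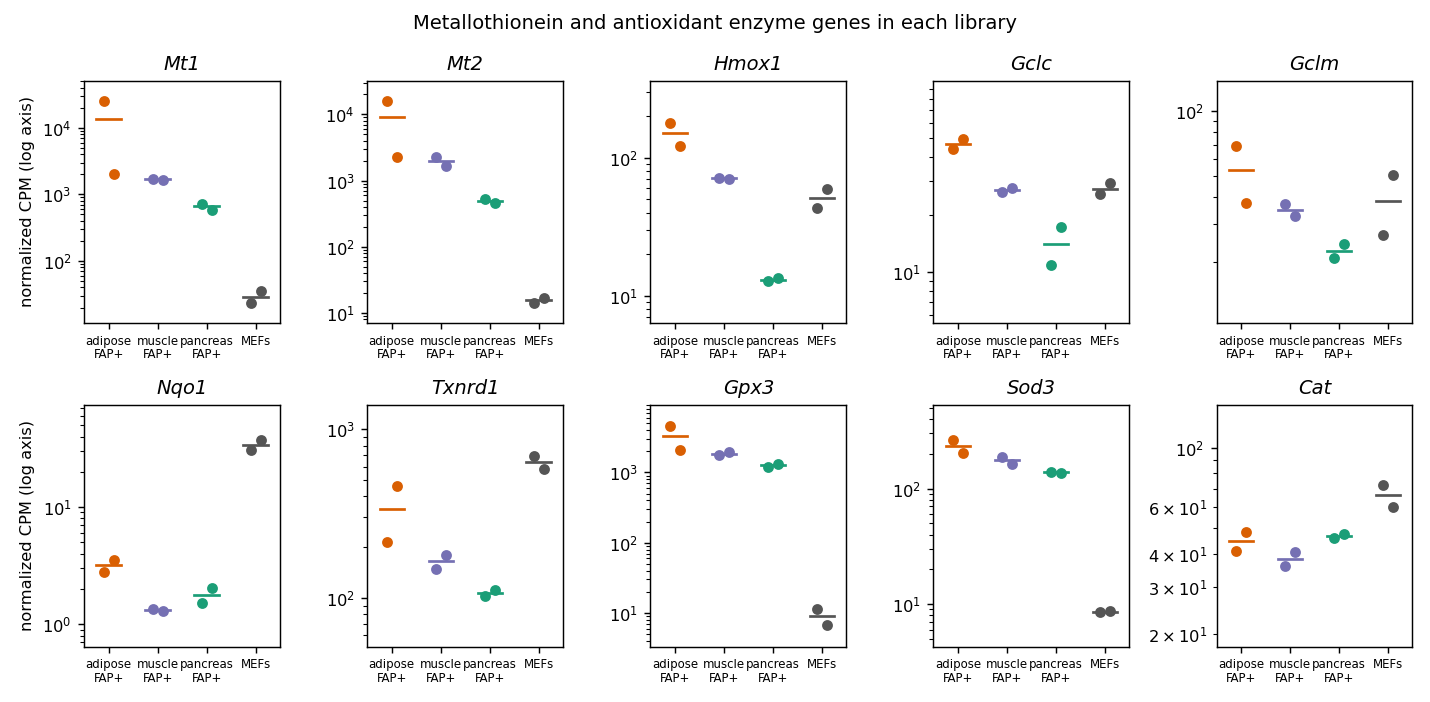
Normalized CPM of the 10 members on a log axis, in adipose, muscle and pancreas FAP+ cells and in MEFs; each point is 1 library and each line the mean of 2. Mt1, Mt2, Gpx3 and Sod3 lie far above MEFs in every FAP+ library, Nqo1 far below, and Hmox1 is lowest in pancreas at 12.7 and 13.4 CPM.

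Of the Nrf2 targets among the members, Nqo1 had the largest difference from MEFs in every tissue. Nqo1, the quinone reductase often used as a readout of Nrf2, had 2.82 and 3.53 CPM in adipose cells, 1.34 and 1.29 in muscle cells and 1.51 and 2.03 in pancreas cells, against 30.9 and 37.4 CPM in MEFs. The FAP+ values rest on 20.9 to 86.9 estimated fragments per library. In adipose cells it was 10.7-fold lower (log2 -3.42 ± 0.3, adjusted p = 0.000138), 25.9-fold in muscle cells (-4.69 ± 0.32, adjusted p = 6.88e-05) and 19.2-fold in pancreas cells (-4.26 ± 0.32, adjusted p = 8.29e-05), and was called with any single library left out. Txnrd1, the cytosolic thioredoxin reductase, had 215 and 463 CPM in adipose cells, 149 and 181 in muscle cells and 103 and 111 in pancreas cells, against 699 and 580 CPM in MEFs. The FAP+ libraries were all below the MEF libraries, adipose library 2 the least so. Txnrd1 was 3.88-fold lower in muscle cells (log2 -1.96 ± 0.4, adjusted p = 0.00618) and 5.98-fold lower in pancreas (-2.58 ± 0.41, adjusted p = 0.0021). In adipose the difference of log2 -0.92 ± 0.39 missed the threshold (adjusted p = 0.0821), and it was 3.01-fold lower without adipose library 2 (adjusted p = 0.00154). The muscle call was lost without muscle library 1 (log2 -1.83, adjusted p = 0.0654).

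Hmox1, the inducible heme oxygenase, differed from MEFs in opposite directions by tissue. It had 180 and 121 CPM in adipose cells, 70.9 and 70.7 in muscle cells and 12.7 and 13.4 in pancreas cells, against 43.4 and 59.5 CPM in MEFs. Both adipose and both muscle libraries lay above the MEF range, and both pancreas libraries below it. Hmox1 was 2.93-fold higher in adipose cells (log2 1.55 ± 0.29, adjusted p = 0.00396) and 3.95-fold lower in pancreas (-1.98 ± 0.3, adjusted p = 0.00167). Both calls held with any single library left out. The muscle difference of log2 0.46 ± 0.29 missed the threshold (adjusted p = 0.224) and was -0.15 in log2(FPKM + 1), where the median over all genes was -0.39. The adipose call was lost in limma on log2(FPKM + 1), with log2 0.40 and an adjusted p of 0.221, where the median over all genes was -0.65. It held with RLE size factors (log2 1.63, adjusted p = 0.00374) and in recovered reads (log2 0.94, adjusted p = 0.00954), and the cause of the loss was not tested.

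Gclc and Gclm, the catalytic and modifier subunits of the enzyme that limits glutathione synthesis, differed little from MEFs. Gclc had 44.2 and 49.8 CPM in adipose cells, 26.3 and 27.5 in muscle cells and 10.9 and 17.3 in pancreas cells, against 25.5 and 29.1 CPM in MEFs. Adipose lay above MEFs, muscle within their range and pancreas below. It was 1.72-fold higher in adipose cells (log2 0.78 ± 0.28, adjusted p = 0.0469), log2 -0.02 ± 0.28 in muscle cells (adjusted p = 0.959) and 1.93-fold lower in pancreas (-0.95 ± 0.28, adjusted p = 0.028). The adipose call was lost with no low count filter (adjusted p = 0.11), in a fit of adipose and MEFs alone (0.0862), and in log2(FPKM + 1), where the sign turned (log2 -0.31). It held only without adipose library 1 or pancreas library 2 among the 8 libraries left out in turn, with adjusted p up to 0.224. The pancreas call was lost without either muscle library, pancreas library 1 or either MEF library (adjusted p up to 0.187). Gclm had 68.9 and 37.8 CPM in adipose cells, 37.1 and 32.6 in muscle cells and 21 and 24.2 in pancreas cells, against 26.7 and 50.5 CPM in MEFs. The wide MEF pair overlapped both adipose and muscle. Its log2 fold changes of 0.47 ± 0.39, -0.15 ± 0.39 and -0.77 ± 0.39 in adipose, muscle and pancreas had adjusted p of 0.341, 0.782 and 0.146. Annotated exons of 2 other genes overlap those of Gclm, 1 of them on the opposite strand. The ratio of Gclm to Gclc in FPKM ranged from 1.77 to 4.46 over the 8 libraries, with 2.44 and 4.04 in the MEF pair alone.

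**Figure D3:**
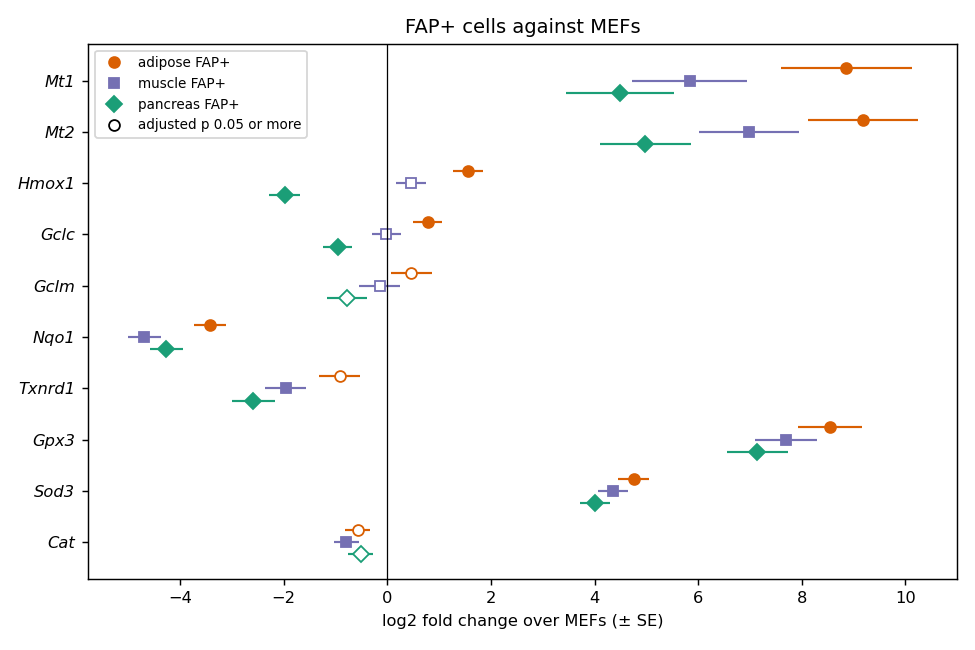
Fitted log2 fold change over MEFs with its SE for each member in adipose, muscle and pancreas FAP+ cells, on a linear axis; filled points passed an adjusted p of 0.05 and open points did not. Mt1, Mt2, Gpx3 and Sod3 lie right of 0 in all 3 tissues, Nqo1 and Txnrd1 left of it, and Hmox1 falls on both sides, from 1.55 in adipose to -1.98 in pancreas.

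In all, 6 of the 10 members were higher and 1 lower in adipose FAP+ cells than in MEFs, 4 higher and 3 lower in muscle, and 4 higher and 4 lower in pancreas. Over all tested genes, 50.1% were called in the adipose comparison, 43.8% in the muscle comparison and 42.5% in the pancreas comparison, so calls of 7, 7 and 8 members stand against a high background. With 1 library left out, these shares ranged from 28.1% to 61.6%, 21.8% to 58.5% and 22.8% to 57.5%. By direction, 26.9% were higher and 23.2% lower in adipose, 23.7% and 20.0% in muscle, and 23.1% and 19.4% in pancreas. On the log2(FPKM + 1) scale the split of calls was another one: of all genes called, 20.6%, 29.6% and 35.0% were higher in adipose, muscle and pancreas, against 53.6%, 54.2% and 54.4% in edgeR. The median log2 fold change of the members was 1.17 in adipose, 0.22 in muscle cells and -0.64 in pancreas, beside 0.05, 0.03 and 0.02 over all tested genes. The 3 comparisons share the same 2 MEF libraries. Among all tested genes ordered by fold change from the highest, Gpx3 stood at place 213 in adipose, 219 in muscle cells and 275 in pancreas, and Mt2 at 154, 314 and 745. From the lowest, Nqo1 stood at place 621, 259 and 426.

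The rank of the members by level also differed between FAP+ cells and MEFs. By mean FPKM the first 4 places in adipose went to Mt1 (15717 ± 16365), Mt2 (10626 ± 8691), Gpx3 (840 ± 91.8) and Sod3 (92.5 ± 23.1; SD, n = 2). The same 4 genes led in muscle, with Mt2 (4031 ± 726) before Mt1 (3517 ± 22), and in pancreas, with Mt1 at 1528 ± 107 and Mt2 at 1114 ± 46.7. In MEFs Mt1 led with 94.5 ± 21.4 FPKM, followed by Txnrd1 (81.6 ± 14.9) and Hmox1 (57.2 ± 9.75), while Sod3 (7.43 ± 0.345) and Gpx3 (5.37 ± 2.21) came last. Nqo1 was last in each FAP+ population, at 1.79 ± 1.02 in adipose, 0.961 ± 0.0102 in muscle cells and 1.45 ± 0.384 in pancreas. This order depends on the correction for length. In mean CPM, Txnrd1 (640) stood above Mt1 (29.2) in MEFs, and Txnrd1 (339) above Sod3 (234) in adipose. The ratio of Gpx3 to Cat in FPKM was 96.4 and 37 in adipose cells, 42.5 and 40.6 in muscle cells and 22.6 and 24.1 in pancreas cells, against 0.133 and 0.0954 in MEFs.

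Between tissues, pancreas FAP+ cells had lower levels of metallothioneins, Hmox1, Gclc and Txnrd1 than adipose FAP+ cells. Against adipose cells, 5 of the 10 members were lower in pancreas and 0 higher, where 9.05% of all tested genes were called (3.32% as higher and 5.73% as lower). This count was 0 without either pancreas library, 2 without any 1 library of muscle or MEFs, and 8 without adipose library 2. The share over all genes moved too, to 33.0% without adipose library 2 and 0.0515% without pancreas library 2. Hmox1, at 12.7 and 13.4 CPM in pancreas against 180 and 121 CPM in adipose, was 11.6-fold lower (log2 -3.53 ± 0.32, adjusted p = 0.00271). Gclc was 3.33-fold lower (-1.74 ± 0.29, adjusted p = 0.0122). Leaving out 1 library at a time kept Hmox1 between 9.35-fold and 13.8-fold lower. The calls of both genes were lost without either pancreas library, with adjusted p up to 0.0631 for Hmox1 and 0.124 for Gclc. Gclc also missed the threshold in a fit of these groups alone (adjusted p = 0.0861) and in log2(FPKM + 1) (log2 -0.99, adjusted p = 0.151). Markers of other cell types also differed between these groups. The 6 acinar markers summed to 73.7 to 164 CPM in pancreas, against 1.01 to 3.66 in adipose, 0.255 to 0.343 in muscle and 1.62 to 1.76 in MEFs. The 5 mesothelial markers summed to 20.3 to 46.6 CPM in pancreas, against 3.85 to 8.16 in adipose, 5.45 to 7.72 in muscle and 39.2 to 46.5 in MEFs. The 5 islet markers summed to 8.7 to 9.51 CPM in pancreas and to at most 4.04 elsewhere. The part of these cell types in the pancreas results was not tested.

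Mt1 was 20.7-fold lower in pancreas than in adipose cells (log2 -4.37 ± 1.04, adjusted p = 0.0408) and Mt2 18.4-fold lower (-4.2 ± 0.85, adjusted p = 0.0247). These sizes rest largely on adipose library 1: without it Mt1 was 3.11-fold and Mt2 4.61-fold lower, and without adipose library 2 they were 38.2-fold and 32.2-fold lower. Both calls were lost without any 1 library of muscle, pancreas or MEFs (adjusted p up to 0.259 and 0.198) and in a fit of these groups alone (0.168 and 0.129). In log2(FPKM + 1) Mt1 also missed the threshold (log2 -2.80, adjusted p = 0.0682). Txnrd1 was 3.17-fold lower (-1.66 ± 0.4, adjusted p = 0.0411), and 2-fold lower without adipose library 2. Its call was lost without any 1 library of muscle, pancreas or MEFs (adjusted p up to 0.259), with no filter (0.0614), in a fit of these groups alone (0.153) and in log2(FPKM + 1) (0.314). Gclm, Gpx3, Sod3, Nqo1 and Cat had log2 differences of -1.24 ± 0.4, -1.40 ± 0.46, -0.75 ± 0.26, -0.85 ± 0.3 and 0.06 ± 0.24, with adjusted p from 0.098 to 0.905.

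Pancreas and muscle differed in Hmox1. Its 12.7 and 13.4 CPM in pancreas, against 70.9 and 70.7 CPM in muscle, were 5.44-fold lower (log2 -2.44 ± 0.3, adjusted p = 0.007). This was 1 of the 10 members, where 3.67% of all tested genes were called (1.54% as higher and 2.14% as lower), a share between 0.377% (without pancreas library 1) and 7.85% (without adipose library 1) with 1 library left out. The fold stayed between 5.33 and 5.61 with each library left out, but the call was lost without either muscle or either pancreas library (adjusted p up to 0.126). Mt2 was 4.01-fold lower in pancreas with an adjusted p of 0.284, and Mt1 2.54-fold lower with 0.654. In this comparison the spread of the adipose pair enters through the pooled fit. Fitted on the muscle and pancreas libraries alone, Mt1 and Mt2 passed (adjusted p = 0.00328 and 0.000728), as they did without adipose library 1 or 2 (adjusted p from 0.00269 to 0.0169). The remaining 7 members had log2 differences between -0.93 and 0.43 and adjusted p from 0.151 to 0.755.

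Muscle and adipose FAP+ cells were not separated by any member in edgeR's test, where 6.12% of all tested genes were called (2.34% as higher and 3.78% as lower). With 1 library left out this share ranged from 0.328% (without muscle library 1) to 35.1% (without adipose library 2). At an unadjusted p below 0.05, 6 of the 10 were lower in muscle, a count for which no share over all genes was taken. DESeq2 called 6 members, but it also called 2016 of all 14847 tested genes, of which 31.3% were higher in muscle. Without adipose library 1 edgeR called 2 members, and without adipose library 2 it called 5. Nqo1 came closest, with 1.34 and 1.29 CPM in muscle against 2.82 and 3.53 CPM in adipose cells (log2 -1.28 ± 0.3, adjusted p = 0.0518), and it passed with RLE size factors (adjusted p = 0.0428) and in recovered reads (log2 -1.48, adjusted p = 0.0088). Hmox1 was at log2 -1.09 ± 0.29 (adjusted p = 0.0715). Mt1 and Mt2 had the largest differences, of log2 -3.02 ± 0.97 (adjusted p = 0.118) and -2.20 ± 0.78 (0.147). Without adipose library 1 they shrank to 1.22-fold and 1.15-fold, and without adipose library 2 they were 15-fold and 8.02-fold lower in muscle. Gpx3 likewise stood at log2 -0.85 ± 0.45 (adjusted p = 0.287), and at 1.14-fold lower without adipose library 1 and 2.48-fold lower without adipose library 2 (adjusted p = 0.775 and 0.016).

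**Figure D4:**
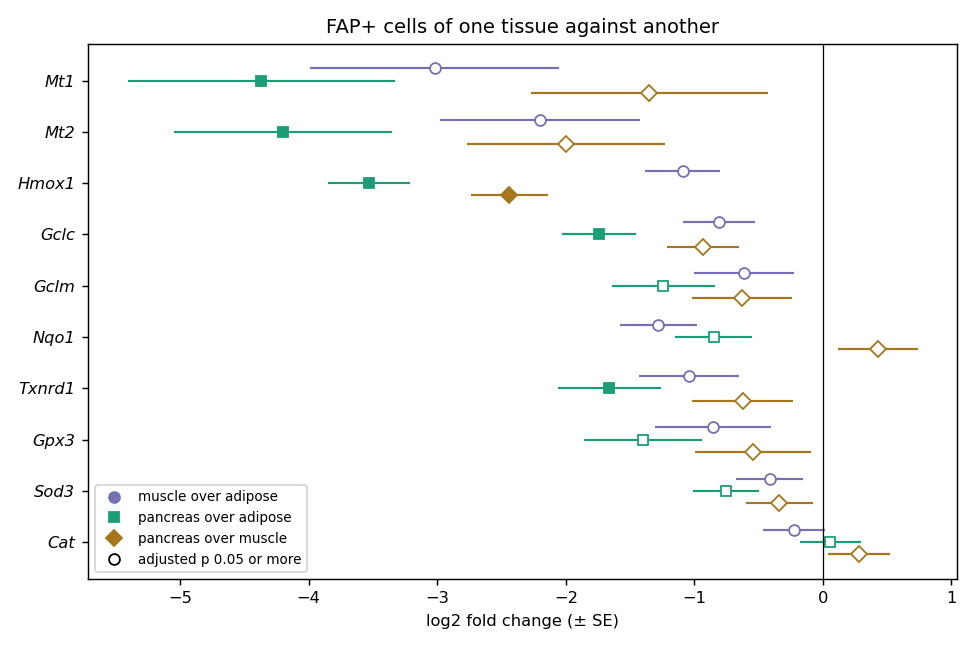
Fitted log2 fold change with its SE for each member between FAP+ populations (muscle over adipose, pancreas over adipose, pancreas over muscle), on a linear axis; filled points passed an adjusted p of 0.05. Pancreas over adipose passed for Mt1, Mt2, Hmox1, Gclc and Txnrd1, pancreas over muscle for Hmox1 (-2.44), and muscle over adipose for none of the 10.

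Several regulators of Nrf2 were higher in adipose cells than in MEFs. Of 11 genes tested, 6 were higher than in MEFs in adipose, 4 higher and 1 lower in muscle, and 3 higher and 1 lower in pancreas. Over all tested genes, 26.9%, 23.7% and 23.1% were called as higher and 23.2%, 20.0% and 19.4% as lower. The medians of the 11 were log2 1.59, 0.88 and 0.45, beside 0.05, 0.03 and 0.02 over all tested genes. Against adipose, 5 of the 11 were lower in pancreas and 1 in muscle, and none was higher. There 5.73% and 3.78% of all tested genes were called as lower. Nfe2l2, which encodes Nrf2, averaged 238 CPM in adipose, 127 in muscle cells and 84.7 in pancreas, and 79.2 CPM in MEFs. It was 3.01-fold higher in adipose cells (log2 1.59 ± 0.26, adjusted p = 0.00204), and at log2 0.68 ± 0.25 in muscle cells (adjusted p = 0.0623) and 0.10 ± 0.25 in pancreas (adjusted p = 0.78). By mean FPKM the groups lay closer, with 79.1 ± 24 in adipose and 58.3 ± 7.02 in muscle cells (SD, n = 2 each). Pancreas had 43.4 ± 3.58 FPKM and MEFs 56.6 ± 3.99. In limma on log2(FPKM + 1) the median over all genes was itself at -0.65 in adipose. Between tissues Nfe2l2 was 2.81-fold lower in pancreas than in adipose (adjusted p = 0.0145, lost without either pancreas library). Bach1, the repressor of Hmox1, was 5.51-fold higher in adipose (adjusted p = 0.00509), and 2.89-fold without adipose library 2. It stood at log2 1.35 ± 0.48 in muscle cells (adjusted p = 0.0519) and 0.45 ± 0.47 in pancreas (adjusted p = 0.473). Pancreas cells had 4.04-fold less Bach1 than adipose cells (adjusted p = 0.043), 2.13-fold less without adipose library 2. That call was lost without any 1 library of muscle, pancreas or MEFs. Keap1, the inhibitor of Nrf2, averaged 409 CPM in adipose, 542 in muscle cells and 570 in pancreas, and 333 CPM in MEFs (log2 0.30, 0.70 and 0.78, each ± 0.3, adjusted p = 0.43, 0.0939 and 0.0713). Maff and Mafk, small Maf partners of Nrf2, were higher in all 3 tissues. Maff was 37-fold, 6.9-fold and 5.46-fold higher and Mafk 12.7-fold, 7.74-fold and 3.94-fold higher in adipose, muscle and pancreas (adjusted p from 8.63e-05 to 0.00291). Maff was also 5.37-fold lower in muscle cells and 6.79-fold lower in pancreas than in adipose (adjusted p = 0.0116 and 0.00594), calls that were lost without either library of the lower group. Cul3, the ligase scaffold that carries Keap1, was 2.42-fold lower in muscle cells (lost without either muscle library or MEF library 1) and 2.92-fold lower in pancreas (lost without either pancreas library or MEF library 1), with adjusted p of 0.0178 and 0.00869.

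Other known Nrf2 targets did not move in a single direction. Of 16 tested, 5 were higher and 5 lower in adipose, 4 higher and 6 lower in muscle, and 2 higher and 7 lower in pancreas than in MEFs. Among all tested genes, 26.9%, 23.7% and 23.1% were called as higher and 23.2%, 20.0% and 19.4% as lower. The medians of the 16 were log2 0.15, -0.60 and -0.78. Me1 (malic enzyme) and Gsr (glutathione reductase), both suppliers of reducing power, were lower in every tissue. Me1 was 4.44-fold, 3.87-fold and 6.08-fold lower and Gsr 3.24-fold, 3.54-fold and 3.91-fold lower in adipose, muscle and pancreas (adjusted p from 0.000792 to 0.00823). Gsr was 5.02-fold lower in adipose without adipose library 2, and its calls were lost in muscle without muscle library 1 and in pancreas without pancreas library 1. Blvrb, a biliverdin and flavin reductase, was 11.4-fold higher in adipose, 6.87-fold in muscle cells and 4.19-fold in pancreas cells (adjusted p = 0.00356, 0.00953 and 0.028). Its adipose fold was 4.38 and 18.3 without adipose library 1 or 2, its muscle call was lost without muscle library 1 or either MEF library, and its pancreas call without any 1 library of muscle, pancreas or MEFs. Osgin1, an oxidative stress-induced growth inhibitor, was 10.1-fold, 11.8-fold and 17.6-fold higher in adipose, muscle and pancreas (adjusted p = 0.00205, 0.00174 and 0.000995), and 5.16-fold higher in adipose without adipose library 1. Fth1, the ferritin heavy chain, was 7.75-fold higher in adipose (adjusted p = 0.00642), 3.31-fold and 12.1-fold without adipose library 1 or 2. This call was lost without MEF library 1 (adjusted p = 0.0583). In muscle Fth1 was 3.57-fold higher (adjusted p = 0.0385), a call lost without any 1 library of muscle, pancreas or MEFs, and in pancreas its 3.25-fold difference missed the threshold (adjusted p = 0.0511). Reads could be shared with pseudogene copies of Fth1, which was not tested. Srxn1, which repairs over-oxidized peroxiredoxins, was 3.69-fold lower in muscle cells and 4.56-fold lower in pancreas than in adipose (adjusted p = 0.00852 and 0.00431, lost without either library of the lower group).

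Genes of glutathione metabolism were called in both directions, and most of the other antioxidant enzymes did not pass. Over all tested genes, 50.1%, 43.8% and 42.5% were called in adipose, muscle and pancreas against MEFs. Of 10 genes of glutathione synthesis and glutaredoxins, 3 were higher and 3 lower in adipose, 2 higher and 4 lower in muscle cells and 2 higher and 5 lower in pancreas (medians of log2 -0.17, -0.42 and -0.79). Ggt5, an ectoenzyme that cleaves glutathione conjugates, was 142-fold, 95-fold and 131-fold higher in adipose, muscle and pancreas (adjusted p from 0.000759 to 0.00109), at 0.646 CPM in MEFs. Its folds ranged with the library left out, to 368 and 88.1 in adipose cells, 243 and 59.5 in muscle cells and 339 and 81.5 in pancreas cells without MEF library 1 or 2. They were 217 and 67.8 in adipose without adipose library 1 or 2, and 56 in muscle without muscle library 2. Oplah (5-oxoprolinase) was 7.54-fold, 7.41-fold and 7.43-fold higher, while Gss (glutathione synthetase) was lower by 3.81-fold, 3.33-fold and 3.58-fold (adjusted p from 0.000453 to 0.00214). Chac1, which degrades glutathione, was 25-fold, 86.5-fold and 134-fold lower, resting on 26, 7.81 and 5.18 fragments in the 2 libraries of adipose, muscle and pancreas together. The pancreas fold was 68.5 without pancreas library 1 and 3377 without pancreas library 2, and is uncertain for that reason. Of 20 other antioxidant enzymes, 5 were higher and 3 lower in adipose cells, 2 and 2 in muscle cells and 1 and 2 in pancreas (medians of log2 0.56, 0.04 and -0.11). Selenop, the secreted selenium carrier, was the gene with the largest fold, 199-fold, 166-fold and 114-fold higher in adipose, muscle and pancreas (adjusted p from 3.66e-05 to 6.03e-05). Gpx1, the cytosolic glutathione peroxidase, was 4.66-fold higher in adipose (adjusted p = 0.0203), 1.81-fold and 7.46-fold without adipose library 1 or 2, and its call was lost without either MEF library. In muscle and pancreas Gpx1 differed by 1.27-fold and 1.11-fold (adjusted p = 0.671 and 0.855). Gpx7, a peroxidase of the endoplasmic reticulum, was 3.08-fold higher in adipose (adjusted p = 0.00729), 2.03-fold without adipose library 1, and the call was lost without either MEF library. It was 2.1-fold higher in muscle cells (adjusted p = 0.0381), a call lost without any 1 library of muscle, pancreas or MEFs, and its 1.86-fold difference in pancreas missed the threshold (adjusted p = 0.0702). Msrb3 (a methionine sulfoxide reductase) was 5.61-fold, 5.51-fold and 4.7-fold lower and Prdx3 (the mitochondrial peroxiredoxin) 2.15-fold, 1.9-fold and 2.29-fold lower, with adjusted p from 0.00541 to 0.0149. In adipose Msrb3 was 3.64-fold and 12.6-fold lower without adipose library 1 or 2. Its calls were lost without either muscle library or MEF library 1 in muscle, and without either pancreas library or MEF library 1 in pancreas. Those of Prdx3 were lost without either muscle library or MEF library 2 in muscle, and without pancreas library 1 in pancreas.

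Among genes of heme and iron handling, Trf and Tfrc differed most. Of 11 tested, 3 were higher and 2 lower in adipose, and 2 higher and 2 lower in each of muscle and pancreas (medians of log2 0.09, -0.37 and -0.01). The shares over all tested genes were 26.9%, 23.7% and 23.1% higher and 23.2%, 20.0% and 19.4% lower in adipose, muscle and pancreas. Trf (transferrin, the iron carrier of plasma) was 1560-fold higher in adipose, 88.9-fold in muscle cells and 37.4-fold in pancreas cells (adjusted p = 3.14e-05, 5.6e-05 and 8.35e-05), at 0.829 CPM in MEFs. It was also 17.6-fold lower in muscle cells and 41.7-fold lower in pancreas than in adipose (adjusted p = 0.00231 and 0.00173), the second call being lost without pancreas library 2 (adjusted p = 0.0544). Tfrc, the receptor that takes transferrin into cells, was 10.6-fold, 14.6-fold and 27.4-fold lower, and Lrp1, which takes up heme bound to hemopexin, was 8.43-fold, 6.53-fold and 6.48-fold higher (adjusted p from 0.000173 to 0.000459). Hmox2, the constitutive heme oxygenase, was 1.73-fold lower in adipose (adjusted p = 0.03), a call lost without either pancreas or either MEF library. Slc11a2, an iron importer, was 1.65-fold lower in muscle cells and 1.77-fold lower in pancreas (adjusted p = 0.0299 and 0.0186). These calls were lost without any 1 library of muscle, pancreas or MEFs in the first case, and without either pancreas or either MEF library in the second.

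Among enzymes that make oxidants, 5 of 7 tested genes were higher and 1 lower than in MEFs in each tissue. Their medians were log2 4.23, 2.23 and 2.29 in adipose, muscle and pancreas. Among all tested genes, 26.9%, 23.7% and 23.1% were called as higher and 23.2%, 20.0% and 19.4% as lower. Xdh (xanthine dehydrogenase, which can give off superoxide as its oxidase form) was 357-fold, 232-fold and 177-fold higher in adipose, muscle and pancreas (adjusted p from 3.14e-05 to 4.53e-05), at 0.603 CPM in MEFs. Maob, a monoamine oxidase that releases hydrogen peroxide, was higher by 42.5-fold in adipose, 28.8-fold in muscle cells and 10.7-fold in pancreas cells (adjusted p = 6.06e-05, 0.0001 and 0.000337). It was 3.98-fold lower in pancreas than in adipose (adjusted p = 0.0117, lost without either pancreas library). Aox1 (aldehyde oxidase) was 25.2-fold, 21.2-fold and 14.5-fold higher in adipose, muscle and pancreas (adjusted p = 4.34e-05, 6.24e-05 and 8.28e-05). Maoa, the paralog of Maob, was lower by 3.45-fold, 2.78-fold and 2.9-fold (adjusted p = 0.00403, 0.00979 and 0.00851). Its muscle call was lost without either muscle library or MEF library 1, and its pancreas call without pancreas library 1 or MEF library 1. The phagocyte oxidase genes Cybb, Ncf1 and Ncf4 did not pass the filter on low counts.

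**Figure D5:**
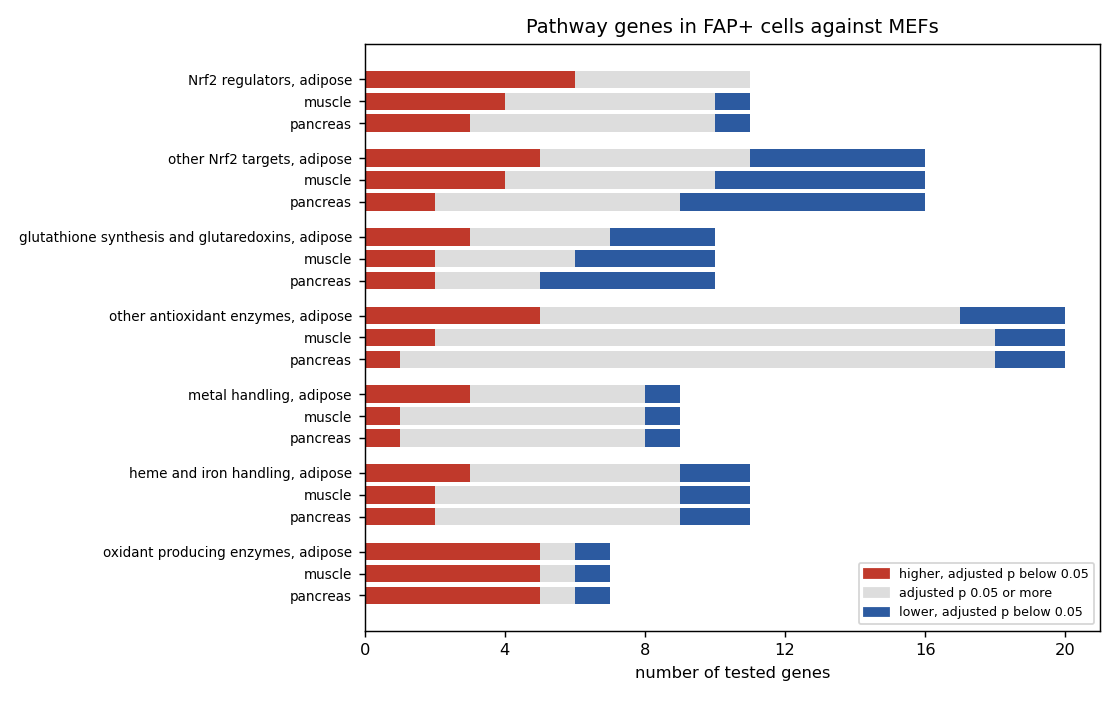
Number of tested genes in each pathway list that were higher, not called or lower in adipose, muscle and pancreas FAP+ cells against MEFs at an adjusted p of 0.05. Nrf2 regulators have 6 higher and 0 lower in adipose, while other Nrf2 targets have 2 higher and 7 lower in pancreas. Of all tested genes, 26.9% were called as higher and 23.2% as lower in adipose, and 23.1% and 19.4% in pancreas.

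Genes with the pattern most like that of a member were found by the root mean square difference of log2 CPM, each gene centred on its mean over the 8 libraries. For Mt1 these were Nmb (0.39 log2 units), Mt2 (0.46) and the chemokine gene Ccl8 (0.49), so Mt2 held the second place among all tested genes. For Mt2 the nearest of all tested genes was Mt1. For Gpx3 they were Mndal (0.25), Xpnpep2 (0.29) and Xdh (0.32). For Hmox1 they were the prostaglandin transporter gene Slco2a1 (0.3), Arhgef28 (0.44) and Tent5b (0.5). Gclc and Gclm were the nearest members to each other, at 0.4 log2 units, though Gclm held only place 75 for Gclc among all tested genes.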

How the data were processed

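Whole-transcriptome RNA of 8 mouse libraries (4 groups of 2) was measured after poly(A)-based amplification, which favours the 3′ ends of transcripts. The submitters' processing notes name mm9, Bowtie2, TopHat2, HTSeq and edgeR, without roles. Strand use is not stated there. The authors deposited estimated counts of fragments per gene, bias-adjusted FPKM and RPKM, each in a separate table. The table of estimated counts also holds 6 columns of other samples, which were not used.

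Estimated counts were rounded to whole numbers and tested in R 4.3.3 with edgeR 4.0.16 (TMM, filterByExpr, quasi-likelihood test), with all 8 libraries in 1 fit. It had 4 residual degrees of freedom, and its common biological variation coefficient was 33.2%. p-values were adjusted by Benjamini-Hochberg over 14847 genes with a threshold of 0.05. The SE is the log2 fold change divided by the square root of F. The sample titles call the duplicates biological replicates, but do not say whether they came from separate animals or cultures. The p-values therefore measure only the spread between these samples. Fragment totals of 15516319 to 27759399 set the precision, and floors of 3 fragments cover counting error only.

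Alternatives were RLE size factors, no low count filter, DESeq2 1.42.0, fits of the groups compared alone, a replicate block, limma 3.58.1 on log2(FPKM + 1), whole reads recovered from RPKM (100% of values within 0.01 read of a whole number for 21673 genes, 936 without a step), and leaving out each library. The edgeR script was tested on simulated data. The 10 members, pathway lists and marker lists were chosen with earlier results of these data known. Pathway genes named in the text are, in each list and comparison with MEFs, up to 2 higher and 2 lower called genes with the largest folds where each library of the higher group had 10 CPM or more. Between tissues up to 1 in each direction was named by the same rule. For genes so named in 1 tissue, values in others were added afterwards. Nfe2l2, Keap1, Bach1, Mtf1 and Slc30a1 were named whatever their result. Patterns most like those of Mt1, Gpx3 and Hmox1 were ranked by root mean square difference.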

Additional observations from a re-analysis of the deposited data

Results flagged for a closer look

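In 6 cases a member's difference from MEFs was not the same in 2 tissues by the direct test between them, and each rests on 2 libraries a group. Between pancreas and adipose FAP+ cells the log2 differences were -4.37 for Mt1, -4.2 for Mt2, -3.53 for Hmox1, -1.74 for Gclc and -1.66 for Txnrd1, all lower in pancreas. Between pancreas and muscle FAP+ cells the log2 difference was -2.44 for Hmox1, also lower in pancreas. The values for Mt1 and Mt2 shrink to -1.64 and -2.2 without adipose library 1. The summed CPM of endothelial markers was 65.5 to 75.7 in pancreas and 98.9 to 150 in muscle, against 255 to 300 in adipose, and Tek made up most of it in pancreas (58 and 68.7 CPM) and muscle (86.3 and 102 CPM). Cdh5, in the same list, had 0.156 and 0.052 CPM in pancreas and 1.47 and 5.96 CPM in muscle, against 47.3 and 31.2 CPM in adipose. The part of endothelial RNA in these differences was not tested.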

How the results depend on the processing

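Counts of members called were within 1.5 times of the reported ones in all comparisons with MEFs under every alternative run. Muscle against adipose had 0 called, but 1 with RLE size factors, 6 with DESeq2, 3 in recovered reads and 0 to 5 with a library left out. Pancreas against adipose had 5, but 8 with DESeq2, 1 in a fit of these groups alone, 2 in limma on log2(FPKM + 1) and 0 to 8 with a library left out. Pancreas against muscle had 1, but 4 in a fit of these groups alone and 0 to 3 with a library left out. Deviations of equally numbered replicates correlated between groups at -0.156 to 0.347. With 2 libraries a group, these values cannot settle whether equal numbers pair the samples. With a replicate block pancreas against adipose, where r was 0.347, had 3 members called, without Mt1 (log2 -4.08, adjusted p = 0.0587) and Txnrd1 (-1.61, 0.0523). Log2 fold changes that changed sign were mostly near 0. In limma on log2(FPKM + 1), where the all-gene median was at -0.65, -0.39 and -0.29 against MEFs, they were -0.31 for Gclc, -0.64 for Gclm, -0.78 for Keap1 and -0.53 for Mtf1 in adipose, -0.15 for Hmox1, -0.11 for Mtf1 and -0.067 for Slc30a1 in muscle, and -0.38 for Nfe2l2, -0.044 for Bach1 and -0.014 for Mtf1 in pancreas. Between tissues they were 0.096 for Sod3 and 0.25 for Cat in muscle against adipose and 0.094 for Mtf1 in pancreas against muscle. In recovered reads they were -0.075 for Keap1 and 0.62 for Slc30a1 in adipose and 0.005 for Slc30a1 in pancreas against MEFs, 0.22 for Sod3, -0.36 for Mtf1 and -0.26 for Slc30a1 in muscle against adipose, -0.15 for Cat, -0.26 for Mtf1 and -0.62 for Slc30a1 in pancreas against adipose, and -0.025 for Keap1 and 0.1 for Mtf1 in pancreas against muscle. In fits of the groups compared alone they were 0.0004 for Slc30a1 in adipose, 0.015 for Gclc in muscle and 0.0022 for Slc30a1 in pancreas against MEFs. With a library left out they ranged from -0.034 to 1 for Gclm (adipose against MEF), from -0.53 to 0.21 for Slc30a1 (adipose against MEF), from -0.14 to 0.099 for Gclc (muscle against MEF), from -0.57 to 0.41 for Gclm (muscle against MEF), from -0.27 to 0.18 for Slc30a1 (pancreas against MEF), from -0.066 to 0.19 for Cat (pancreas against adipose), from -0.24 to 0.49 for Slc30a1 (pancreas against adipose), from -0.024 to 0.17 for Keap1 (pancreas against muscle), from -0.12 to 0.071 for Mtf1 (pancreas against muscle). Genes called over the whole table also moved by over 1.5 times: adipose against MEFs had 7445, but 4588 in a fit of these groups alone. Muscle against adipose had 908, but 2016 with DESeq2, 74 in a fit of these groups alone and 1933 in recovered reads. Pancreas against adipose had 1344, but 2405, 305 and 3235, and pancreas against muscle 545, but 1055, 1752 and 864. With a library left out, the counts against MEFs were 4321 to 9491 in adipose, 3382 to 8987 in muscle and 3506 to 8830 in pancreas. Muscle against adipose had 51 to 5410, with 51 and 95 without muscle library 1 or 2 and 5410 without adipose library 2. Pancreas against adipose had 8 to 5077, with 32 and 8 without pancreas library 1 or 2 and 5077 without adipose library 2, and pancreas against muscle had 58 to 88 without any 1 of its own libraries and 1205 without either adipose library. Against MEFs the lowest counts were without MEF library 1 in adipose, muscle library 2 in muscle and pancreas library 1 in pancreas. On the log2(FPKM + 1) scale 52.7%, 66.6% and 54.3% of these tissue calls were higher, against 38.2%, 36.7% and 41.8% in edgeR. The cause of these shifts was not tested.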
